A study of Drosophila melanogaster with 4 samples.

Results

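The larva of Drosophila melanogaster passes through 3 instars separated by moults, and the comparison described here asks which exons were used to a different degree between 2 of its normal stages. The members were all rows of the authors' deposited table that sets wild-type larvae of the third instar at puff stage 1-2 against larvae of the second instar. It held 70463 exon bins in 14470 genes or groups of overlapping genes, of 211389 bins in the 3 exon usage tables of the series. No row was chosen by its fold or p-value. Puff stage 1-2 was represented by 3 sequencing runs and the second instar by 2, all of them published modENCODE RNA sequencing data of wild-type animals (Graveley and colleagues) that the authors of the series took through their own pipeline. The readme deposited with the tables names no age in hours and no sex for these groups. The authors' own samples, Smn mutants and Oregon R wild type of 74 hours after egg laying, are not part of the stage comparison. The series is about whether slowed development accounts for differences seen in Smn mutants, and per the readme the normal stages were analysed separately, for comparison with the mutant samples, from the paired-end runs of best coverage.

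Salivary glands of late larvae carry giant chromosomes on which active genes swell into puffs, and the puff stages are numbered by the pattern of puffs that the moulting steroid ecdysone sets off. A larva between the second moult and this stage feeds, grows, lays down a new body-wall cuticle of chitin and protein, and enlarges its muscles without adding new ones. Many fly genes make several transcripts by choosing among alternative first exons, internal exons or last exons. An exon bin is a stretch of exon that is shared by the same set of transcripts. Its usage is its read count relative to the other bins of its gene, so a change in usage is separate from a change in the level of the whole gene.

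Sequences are shown here for the alternative exons of 4 genes whose bins changed, read from the dm6 genome of RefSeq at bins placed with the Ensembl annotation of release 115. Capitals mark the splice-site bases of the flanking introns, and the lower-case letters are coding sequence 5′ to 3′. The kkv gene (FBgn0001311), which encodes the chitin synthase of the cuticle, has a pair of exons of 177 bases at chr3R:5380354-5380530 (bin 7) and chr3R:5380645-5380821 (bin 8), both on the minus strand. The annotation gives bin 7 to 1 and bin 8 to 2 of its 3 transcripts and both to none. Lsd-1 (FBgn0039114), which encodes a perilipin of lipid droplets, has an exon of 78 bases at chr3R:23765101-23765178 on the plus strand (bin 6), present in 1 of 4 transcripts. The genes obst-E (FBgn0031737) and Gasp (FBgn0026077) encode secreted chitin-binding proteins of the cuticle, and each has 2 transcripts that end in different last exons. For obst-E these lie at chr2L:5762553-5763368 (bin 1) and chr2L:5763460-5764271 (bin 2), and for Gasp at chr3R:6088799-6089693 (bin 1) and chr3R:6093003-6093674 (bin 2), all on the minus strand. Of the last exons, the beginning of the coding part is shown, which for Gasp bin 1 is all 52 of its coding bases.
kkv bin 7: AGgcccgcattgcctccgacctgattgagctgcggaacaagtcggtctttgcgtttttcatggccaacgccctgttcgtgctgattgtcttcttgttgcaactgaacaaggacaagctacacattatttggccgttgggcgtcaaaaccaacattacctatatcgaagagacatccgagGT
kkv bin 8: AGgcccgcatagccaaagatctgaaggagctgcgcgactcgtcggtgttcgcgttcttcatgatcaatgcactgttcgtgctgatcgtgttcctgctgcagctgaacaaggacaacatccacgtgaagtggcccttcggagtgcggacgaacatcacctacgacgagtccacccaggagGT
Lsd-1 bin 6: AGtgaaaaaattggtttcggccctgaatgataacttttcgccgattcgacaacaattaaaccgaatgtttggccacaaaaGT
obst-E bin 1: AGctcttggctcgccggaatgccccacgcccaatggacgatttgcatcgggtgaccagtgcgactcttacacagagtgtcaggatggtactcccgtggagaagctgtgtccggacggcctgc
obst-E bin 2: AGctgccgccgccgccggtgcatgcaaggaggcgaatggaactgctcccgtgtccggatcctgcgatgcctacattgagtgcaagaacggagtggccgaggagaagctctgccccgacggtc
Gasp bin 1: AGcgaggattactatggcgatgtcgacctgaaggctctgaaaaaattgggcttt
Gasp bin 2: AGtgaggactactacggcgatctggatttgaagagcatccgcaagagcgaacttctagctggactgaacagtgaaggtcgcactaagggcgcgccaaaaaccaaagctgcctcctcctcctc
The 2 kkv exons have the same base at 127 of 177 positions (71.8%), counted without gaps. The coding parts of the 2 obst-E last exons, 692 and 671 bases without the stop codon, aligned over 652 bases, of which 65.6% were identical. The 52 coding bases of the Gasp exon of bin 1 matched the 121 of bin 2 at 39 bases.

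Exon usage differed at 505 of 48872 tested bins, which is 1.03% (adjusted p under 0.05 in the authors' deposited table, DEXSeq with Benjamini-Hochberg adjustment). Of these, 268 bins (0.548% of those tested) were used more and 237 (0.485%) were used less at puff stage 1-2 than in the second instar. The called bins lay in 284 of 9087 tested genes or merged groups (3.13%). Among genes with a single identifier, 228 of 8796 were called (2.59%), and this share is the background for every gene list given here. The median absolute log2 fold of called bins was 0.77, with quartiles of 0.43 and 1.45, against a median of 0.11 over all tested bins. A single bin was called in 178 of the genes and at least 2 bins in 106. In 89 of those 106 genes called bins of both directions were present. Usage is relative to the other bins of the gene, so opposite directions within a gene are in part built into the measure. The authors' deposited table holds no value for any single run and no standard error, so no value per sample, no spread between runs and no interval can be given. The readme names the runs by their archive entries and does not say whether they came from separate animals, so the p-values may measure technical spread only.

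**Figure D1:**
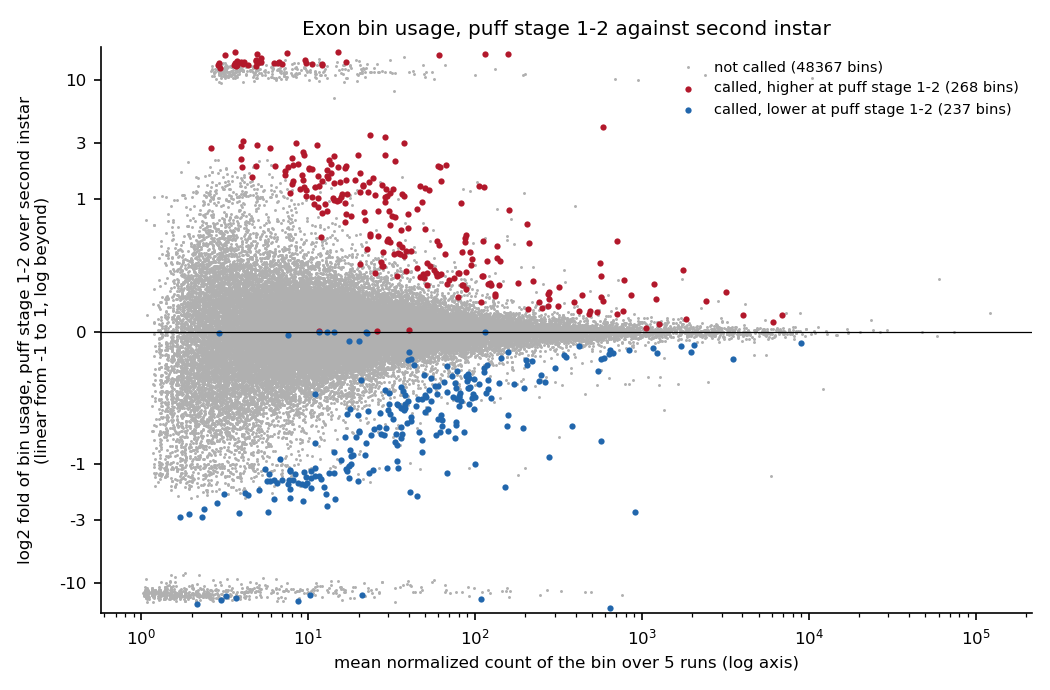
Each point is 1 of the 48872 tested exon bins, with its mean normalized count over the runs on a log x axis and the log2 fold of its usage, puff stage 1-2 over second instar, on the y axis. Called bins are red where usage was higher (268) and blue where it was lower (237), and the bands beyond 10 in either direction are bins whose fitted usage was near 0 in one of the stages.

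Bins with an absolute log2 fold over 10, where one of the stages had almost no reads, made up 1046 of the tested and 48 of the called bins. Of the 48, 39 were higher and 9 lower at puff stage 1-2, and their median mean normalized count was 4.99. Such folds are not sizes of effect. Besides them, 151 called bins had an absolute log2 fold from 1 to 10. At the other extreme, 18 called bins had a listed log2 fold under 0.1 in size. Of these, 13 had a mean normalized count under 200, and all 13 lay in genes with another tested bin beyond 10, and no size of change is read from them. In all, mean normalized counts summed to 5109428 over the bins of the authors' deposited table, and the depth of each run is unknown here. Defining genes of muscle, fat body, salivary gland, midgut, haemocytes and neurons were all above 0, with summed mean normalized counts between 50.9 for elav, a neuronal RNA-binding protein, and 133708 for Lsp1beta, a larval serum protein of the fat body.

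The cuticle genes kkv, obst-E and Gasp changed in alternative exons. The usage of kkv bin 7 rose at puff stage 1-2 with a log2 fold of 0.99 (adjusted p 0.0036, the authors' deposited table). Bin 8, the other 177-base exon, had a log2 fold of -0.26 in the authors' deposited table and was not called (adjusted p 1). Over the runs of both stages bin 7 was the rarer exon, with a mean normalized count of 85.9 per kilobase against 249 for bin 8. None of the other 12 bins of kkv was called. In obst-E the last exon of bin 1 fell by 0.63 and that of bin 2 rose by 0.26 on the log2 scale in the authors' deposited table (adjusted p listed as 0 and 9.66e-12). Per kilobase, bin 2 was the more abundant with 702 against 193 mean normalized counts for bin 1. The shared bin of obst-E, which holds its start codon, had a log2 fold of -0.03. In Gasp the last exon of bin 1 rose with a log2 fold of 1.93 (adjusted p listed as 0, the authors' deposited table). The alternative last exon of Gasp, bin 2, had a log2 fold of -0.17 (adjusted p 0.727, the authors' deposited table) and was the more abundant, with 585 mean normalized counts per kilobase against 74.9 for bin 1.

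**Figure D2:**
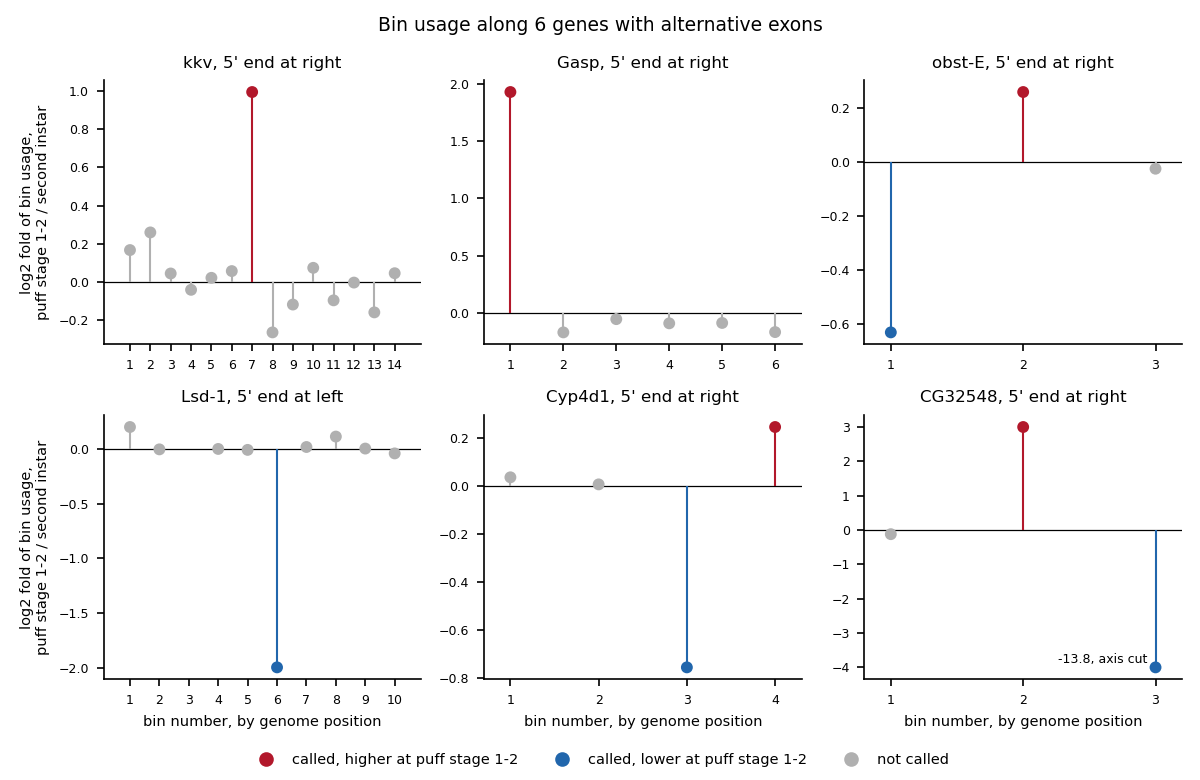
Log2 fold of bin usage, puff stage 1-2 over second instar (y axis), for each tested bin of 6 genes, with bins numbered by genome position (x axis) and the 5′ end of the gene at the side named above each panel. Single bins stand out from flat genes in kkv (bin 7, 0.99), Gasp (bin 1, 1.93) and Lsd-1 (bin 6, -2.0), and pairs of bins move in opposite directions in obst-E, Cyp4d1 and CG32548, whose bin 3 lies beyond the axis at -13.8.

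Of 107 tested genes in the cuticle and chitin list, 7 were called (6.54%, against 2.59% of all genes with a single identifier), with 7 of their 8 called bins higher at puff stage 1-2. Besides kkv, Gasp and obst-E these were TwdlE, a cuticle protein of the Tweedle family, verm, a chitin deacetylase, and the chitinases Cht7 and Cht10. In verm, bin 4 rose with a log2 fold of 0.78 (adjusted p 6.22e-06, the authors' deposited table). The last bin of TwdlE rose by 0.44 on the log2 scale in the authors' deposited table (adjusted p 0.00653), but it overlaps an exon of lectin-28C on the other strand. Bin 1 of Cht7 and bin 1 of Cht10, each at the 3′ end of its gene, had log2 folds of 0.28 and 0.14 in the authors' deposited table, with adjusted p of 0.0284 and 0.0292. The higher bins of Gasp and TwdlE also lie at the 3′ end, while the 3′ end bin of obst-E fell. Over all genes, 58.2% of tested 3′ end bins had a positive log2 fold. The median gene of the list had 2 tested bins, and the median summed mean normalized count was 280.

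Alternative exons near the start of genes changed as well. Cyp4d1, a cytochrome P450 that was picked out after its values were seen, has 2 annotated transcripts with different first exons. The first exon of bin 3 (chrX:2160383-2161023) fell by 0.75 and that of bin 4 (chrX:2161581-2162180) rose by 0.24 on the log2 scale in the authors' deposited table (adjusted p 2.17e-11 and 0.00172), while its 2 shared bins had log2 folds of 0.03 and 0.01. In CG32548 the upstream first exon, bin 3 (chrX:18440190-18440581), had a mean normalized count of 108 and a log2 fold of -13.83 in the authors' deposited table, so almost all of those reads came from the second instar. The downstream first exon of CG32548, bin 2 (chrX:18437002-18437300), rose with a log2 fold of 3.0 in the authors' deposited table, both with adjusted p listed as 0. Desat1, the acyl-CoA desaturase that makes monounsaturated fatty acids, has 5 transcripts in the annotation. Its 5′ UTR exon of bin 2 rose by 0.35 and that of bin 5 fell by 0.53 on the log2 scale in the authors' deposited table (adjusted p 8.39e-04 and 0.014). The cassette exon of Lsd-1 (bin 6) fell by 2.0 on the log2 scale (adjusted p 1.91e-11, the authors' deposited table), and with 185 mean normalized counts per kilobase it was rare beside the exons before and after it, at 1493 and 1379. Lsd-1 and Desat1 were the called genes among 11 tested in the lipid metabolism list (18.2%, against 2.59% of all genes with a single identifier).

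Sarcomere genes had the largest share of called genes of the 21 lists. Of 20 tested genes, 7 were called (35%, against 2.59%), namely bt, up, Mf, Tm1, Actn, Prm and Zasp66, with 11 bins higher and 17 lower at puff stage 1-2 among 267 tested bins. Troponin T, encoded by up (FBgn0004169), is the thin filament protein that links tropomyosin to the calcium switch of contraction. Bins 9 and 10 of up rose with log2 folds of 0.69 and 0.92, and bins 11 and 12 fell by 0.13 and 0.30, in the authors' deposited table (adjusted p listed as 0 for bins 9 and 10, then 0.024 and 2.24e-09). The mean normalized counts of these bins were 710, 160, 1160 and 543, so the change concerned well-covered exons. Projectin, encoded by bt (FBgn0005666), is a titin-like protein of the muscle filaments, and 12 of its 47 bins were called. Of bins 31 to 39, 8 fell, with log2 folds from -1.29 (bin 37, mean normalized count 9.67) to -0.16 (bin 39, 1232) in the authors' deposited table. Nearer the 3′ end, bins 42, 43, 46 and 47 rose with log2 folds of 0.16, 0.46, 0.30 and 0.28 (the authors' deposited table). Over all genes, 58.2% of tested 3′ end bins also had a positive log2 fold, and the part of read coverage was not tested. In Mf, the thick filament protein myofilin, bins 1 and 3 rose with log2 folds of 0.42 and 0.39, while bins 5 and 12 fell by 0.59 and 0.10 (the authors' deposited table). In Tm1, tropomyosin, bins 9, 13, 14, 15 and 26 all fell, with log2 folds from -1.37 to -0.33 (the authors' deposited table). The fold of -1.37 was that of bin 9, at a mean normalized count of 7.65.

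**Figure D3:**
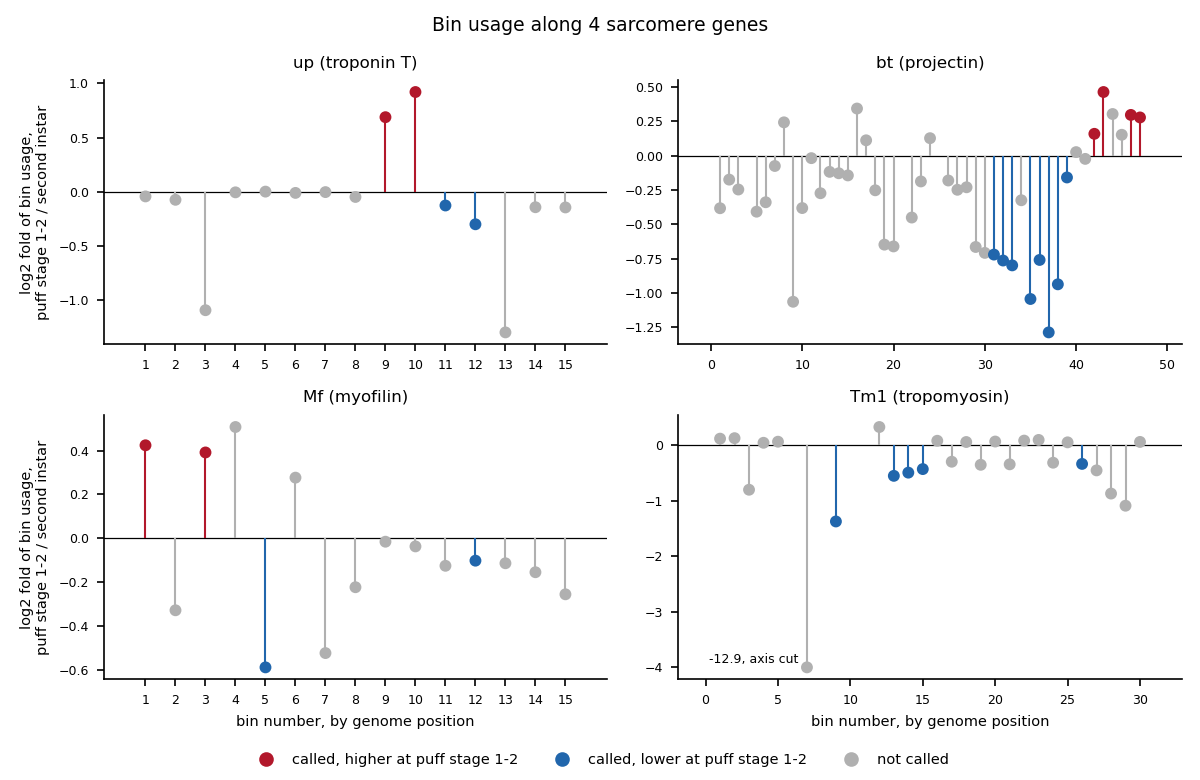
Log2 fold of bin usage, puff stage 1-2 over second instar (y axis), for each tested bin of the troponin T, projectin, myofilin and tropomyosin genes, with bins numbered by genome position (x axis). In troponin T and myofilin called bins go both ways, in projectin a run of lower bins (31 to 39) is followed by higher ones (42 to 47), and in tropomyosin the 5 called bins are all lower. The 5′ end is at the left in projectin and tropomyosin and at the right in troponin T and myofilin.

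The remaining sarcomere calls were single bins. The 5′-most bin of Actn, alpha-actinin of the Z-disc, rose with a log2 fold of 0.88 (adjusted p 0.00753, the authors' deposited table). Bin 4 of Prm, paramyosin, rose with a log2 fold of 0.61, and bin 15 of Zasp66, a Z-disc protein, with 0.16 (the authors' deposited table, adjusted p 0.00807 and 0.0376). The long genes sls and Obsc, titin and obscurin relatives with 33 tested bins each, had no called bin (lowest adjusted p 0.479 and 0.787, the authors' deposited table), and neither had the myosin light chains Mlc1 and Mlc2. The sarcomere genes have many bins and high counts, with medians of 9.5 tested bins and a summed mean normalized count of 4875, and of all single-identifier genes in the highest quartile of both measures 9.92% were called. Outside the list, Scgdelta, a sarcoglycan of the muscle membrane, had bin 2 higher by 0.56 and bin 7 lower by 0.58 on the log2 scale (the authors' deposited table, adjusted p listed as 0 and 0.00323). In Lmpt, a LIM-domain gene, bins 12, 13 and 14 rose together with log2 folds of 0.68, 0.83 and 0.88 (the authors' deposited table). Since bulk RNA of larvae was sequenced, a change of an exon within a cell type and a change in the share of cells that use it cannot be told apart.

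Genes of the ecdysone response were called at 3 of 17 (17.6%, against 2.59% of all genes with a single identifier), all of them transcription factors. Eip74EF encodes an ETS factor, Eip75B a nuclear receptor, and ftz-f1 the nuclear receptor that gives tissues competence for the next ecdysone pulse. In Eip74EF bins 6, 7 and 8 all fell, bins 7 and 8 with log2 folds of -2.80 and -2.65 in the authors' deposited table (adjusted p 0.0028 and 0.014) and bin 6 beyond any bound, but their mean normalized counts were only 1.9 to 2.3. The 5′-most bin of Eip75B rose with a log2 fold of 1.98 at a mean normalized count of only 8.67 (adjusted p 5.38e-06, the authors' deposited table). The 5′-most bin of ftz-f1 rose with a log2 fold of 1.27 (adjusted p 5.56e-05, the authors' deposited table), while its neighbour, bin 9, had a mean normalized count of 21.1 and a log2 fold of -12.7 (the authors' deposited table, adjusted p 9.24e-04), so almost all of those reads came from the second instar. EcR, the ecdysone receptor, had 10 tested bins and none called, as had Hr3, Hr39 and Eip78C. The ecdysone synthesis list (4 tested genes) and the salivary glue list (6 tested genes) had no called gene. The glue genes are short, with 2 or 3 tested bins each, although they were abundant, with summed mean normalized counts from 3270 to 23294 for Sgs1, Sgs3, Sgs5, Sgs7 and Sgs8.

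Genes of lipid transport and energy metabolism were also called. The gene apolpp (FBgn0087002) encodes the apolipoprotein of lipophorin, the lipid carrier of the blood, and 7 of its 8 bins were called. Its bins 1, 2, 3 and 4, at the 5′ end, fell by 0.78, 0.71, 0.76 and 0.21, and bins 6, 7 and 8, at the 3′ end, rose with log2 folds of 0.12, 0.24 and 0.23 (the authors' deposited table). A tilt of the same direction ran through all tested bins, with 58.2% at the 3′ end and 44% at the 5′ end positive. The part of read coverage along the transcript in the apolpp values was not tested. The other 8 tested genes of the serum and fat body list, among them Lsp1alpha and Lsp1beta, were not called (1 of 9, 11.1%, against 2.59%). In glycolysis and the glycerophosphate shuttle 4 of 12 genes were called (33.3%, against 2.59% of all genes with a single identifier). The list had medians of 6.5 tested bins and a summed mean normalized count of 4004. Of all single-identifier genes in the highest quartile of summed count, 5.64% were called. Tpi, triose phosphate isomerase, used its 156-base 5′ UTR exon of bin 3 (chr3R:30134095-30134250) more, with a log2 fold of 0.68 (adjusted p 1.67e-06, the authors' deposited table). Ald1, aldolase, had its 5′-most bin higher by 0.22 and bin 3 lower by 0.19 on the log2 scale, and bin 9 of Pfk, phosphofructokinase, fell by 0.66 (the authors' deposited table). Bin 10 of Gpo1, glycerophosphate oxidase, rose with a log2 fold of 1.87 at a mean normalized count of 4 (the authors' deposited table). Gs2, a glutamine synthetase, had its 5′-most bin higher with a log2 fold of 1.89 and the next 2 bins lower by 0.36 and 0.34 (the authors' deposited table, adjusted p listed as 0, 8.97e-04 and 0.025).

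Splicing regulators were called at 2 of 27 (7.41%, against 2.59% of all genes with a single identifier). Bin 8 of sm, an hnRNP L relative, had a log2 fold of 14.3 at a mean normalized count of 16.9 (the authors' deposited table, adjusted p 8.32e-10), so its reads came almost entirely from puff stage 1-2. Bin 15 of sm fell by 0.62 on the log2 scale (adjusted p 0.0403, the authors' deposited table). Bin 10 of the SR protein gene B52 rose with a log2 fold of 0.35 (adjusted p 0.00344, the authors' deposited table). Among 26 synaptic and excitability genes, Syt1 and nrv2 were called (7.69%, against 2.59%). Syt1, the calcium sensor of synaptic vesicle release, had 8 of 14 bins called. Its bins 1 to 4 at the 3′ end and bins 13 and 14 at the 5′ end fell, with log2 folds from -2.26 to -1.08, and bins 6 and 12 rose with log2 folds of 0.41 and 0.43 (the authors' deposited table). The lower bins of Syt1 had mean normalized counts from 5.90 (bin 14) to 29.8 (bin 1), and bins 6 and 12 had 74.4 and 61.1. In nrv2, a sodium pump beta subunit, the 5′ UTR bin 11 fell by 0.59 (the authors' deposited table, adjusted p 0.00389). Of 64 cytosolic ribosomal protein genes 3 were called (4.69%, against 2.59%), RpS20, RpL10 and RpL10Ab, with absolute log2 folds of 0.07 to 0.30 (the authors' deposited table). The higher bin of RpL10Ab, bin 4, overlaps an exon of CG32095 on the other strand, and the called bin of RpL10, bin 6, is 11 bases long. In the cytoskeleton list, cher, a filamin, was the 1 called gene of 24 (4.17%, against 2.59%), with bin 10 higher by 0.52 and bins 1 and 2 lower by 0.18 and 0.15 on the log2 scale (the authors' deposited table).

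Counted over genes with a single identifier, no gene was called by the adjusted p in 11 of the 21 lists, among them 61 genes of the respiratory chain, 38 translation factors, 20 genes of developmental signalling pathways and 17 gut proteases and digestive enzymes. In 3 of these 11 lists a merged group that holds a listed gene and a neighbour was called: COX6AL2 with Ir75d (respiratory chain), mew with CG15742 (cell adhesion) and Trl with Tsen34 and CG42507 (chromatin regulators). None was called among 12 genes with minor introns, the class named in the title of the series, whose lowest adjusted p was 0.139, in Kcmf1 (the authors' deposited table). Of the 93 tested bins of these 12 genes, 1 had an unadjusted p under 0.05 (1.08%, against 4.73% of all tested bins). Over the 11 lists, 44 of 1190 tested bins did (3.7%), from 0% in the lists of ecdysone synthesis, salivary glue and insulin and Tor signalling genes to 10.7% of the gut protease and digestive enzyme bins (6 of 56). The shares of the translation factors (5.91%) and the cell adhesion genes (5.07%) were also above that of all tested bins. With 12 genes and a background of 2.59%, a count of 0 is near the share of all genes. Over all lists, 32 of 536 tested genes were called (5.97%). The lists were not sampled evenly from the genome, and genes with many bins or high counts were called more often.

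**Figure D4:**
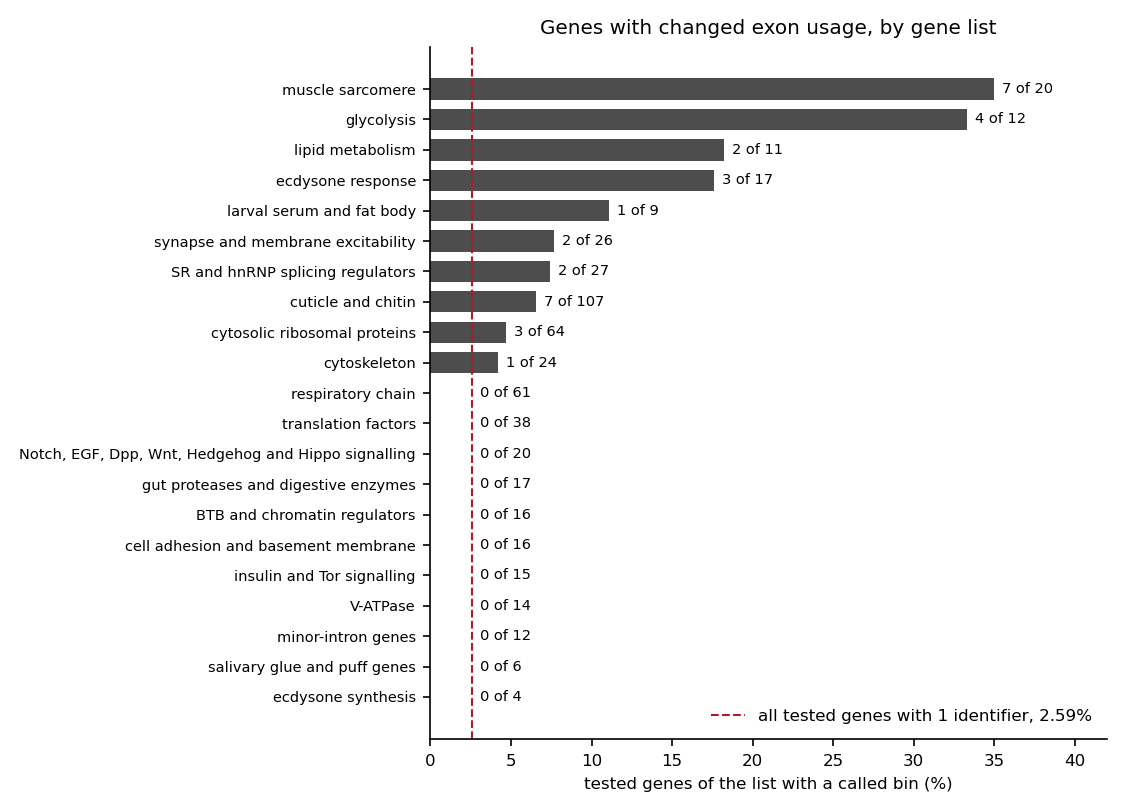
Percent of tested genes with at least 1 called bin (x axis) in each of 21 gene lists (y axis), with called and tested genes beside each bar and the share of all tested genes with 1 identifier (2.59%) as a dashed line. Sarcomere (7 of 20) and glycolysis (4 of 12) genes have the longest bars, and 11 lists have no called gene with a single identifier. Merged groups are left out, and 3 of those 11 lists hold a called one.

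Outside the lists, several of the named genes changed at their ends. In CG8677 (FBgn0026577) the last bin (chr2L:21231693-21232059, plus strand), a 3′ UTR segment present in 1 of 2 transcripts, fell by 2.57 on the log2 scale (adjusted p listed as 0, the authors' deposited table). It held 2478 mean normalized counts per kilobase where the other bins of CG8677 held 15.2 to 47.7. Of those 8 bins, 5 rose, with log2 folds from 1.15 to 1.74 (the authors' deposited table). The last bin held 909 of the 1105 summed mean normalized counts of CG8677. Because usage is relative, its fall alone can raise the usage of the other bins, and whether the 5 rises are separate changes was not tested. The 3′-most bins of TrpRS, a tryptophanyl-tRNA synthetase, of tw, a protein O-mannosyltransferase, and of exu, an RNA localization factor, rose with log2 folds of 2.11, 1.44 and 1.91 (the authors' deposited table). The 3′-most bin of Tsp42Eo, a tetraspanin, rose with a log2 fold of 1.29 (the authors' deposited table), but it overlaps an exon of Tsp42Ep on the other strand. Bins were placed on dm6 for 15 of the 43 genes named by rule, and for the others, TrpRS, tw and exu among them, overlap with another gene was not assessed. The 5′-most bin of tapas, a Tudor domain gene, fell by 1.86 on the log2 scale (the authors' deposited table). Inner bins of Pdp1, a PAR-domain transcription factor, of CG5756 and of CG7255 fell by 1.20, 1.56 and 1.73 (the authors' deposited table). In kumpel, bins 8 to 11 fell, with log2 folds from -1.49 to -1.22, and bins 25 to 28 rose with log2 folds of 1.11 to 1.82 (the authors' deposited table). The mean normalized counts of these kumpel bins were low, from 5.65 in bin 11 to 17.0 in bin 28. In jbug, a filamin-type gene, 5 of 23 bins were called, with absolute log2 folds from 0.26 to 1.06 (the authors' deposited table). The largest of these was in bin 6, at a mean normalized count of 9.73.

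Called bins were not spread evenly along genes. Among single-identifier genes of at least 3 bins, 77 of 6044 tested bins at the 3′ end were called (1.27%), against 47 of 5020 at the 5′ end (0.936%) and 172 of 27545 inner bins (0.624%). At the 3′ end 46 called bins were higher and 31 lower at puff stage 1-2, and at the 5′ end 22 were higher and 25 lower. The tilt was present in all tested bins, called or not: 58.2% of 3′ end bins and 44% of 5′ end bins had a positive log2 fold, with medians of 0.02 and -0.03. At a mean normalized count of at least 50 these shares were 61.5% and 45.4%. In that count range 39 of 2057 bins at the 3′ end were called (1.9%), 14 of 754 at the 5′ end (1.86%) and 61 of 5633 inner bins (1.08%), so the 2 ends had near equal shares. Over all counts, tested bins at the 3′ end had a median mean normalized count of 28.3, against 10.9 at the 5′ end and 15.5 for inner bins. Single-identifier genes with 8 to 44 tested bins were called in 6.2% of cases and those with 2 or 3 in 1.14%. By quartile of summed mean normalized count the share called was 5.64% in the highest and 0.955% in the lowest. Of 736 genes in the highest quartile of both, 73 were called (9.92%). The part of read coverage along transcripts, RNA quality or depth in these shares was not tested, since the authors' deposited table holds no value per run.

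Bins could be placed on dm6 for the 3816 tested genes whose annotation there has as many bins as the table, which held 63 called genes and 95 called bins of 15770 tested (0.602%). Bins present in only part of a gene's transcripts were called at 33 of 1659 (1.99%), against 62 of 14111 bins present in every transcript (0.439%). By content, 45 of 3973 bins with 3′ UTR bases were called (1.13%), 29 of 4512 with 5′ UTR bases (0.643%) and 21 of 7128 that were coding throughout (0.295%). Of the 21 called bins that were coding throughout, 3 were present in part of the transcripts. They were the kkv and Lsd-1 exons shown above and bin 3 of CG4998, and the length of each was a multiple of 3 bases. The share of such lengths among all tested bins of this kind was not computed. Called bins that hold both coding and UTR bases, such as bins 1 and 2 of obst-E and bin 1 of Gasp, are not among the 3. Bins that overlap an exon of another gene were called at 41 of 1762 (2.33%) and the others at 54 of 14008 (0.385%). Whether reads were counted by strand is not given in the sources used here, so for overlapping genes reads of the 2 genes cannot be told apart.

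**Figure D5:**
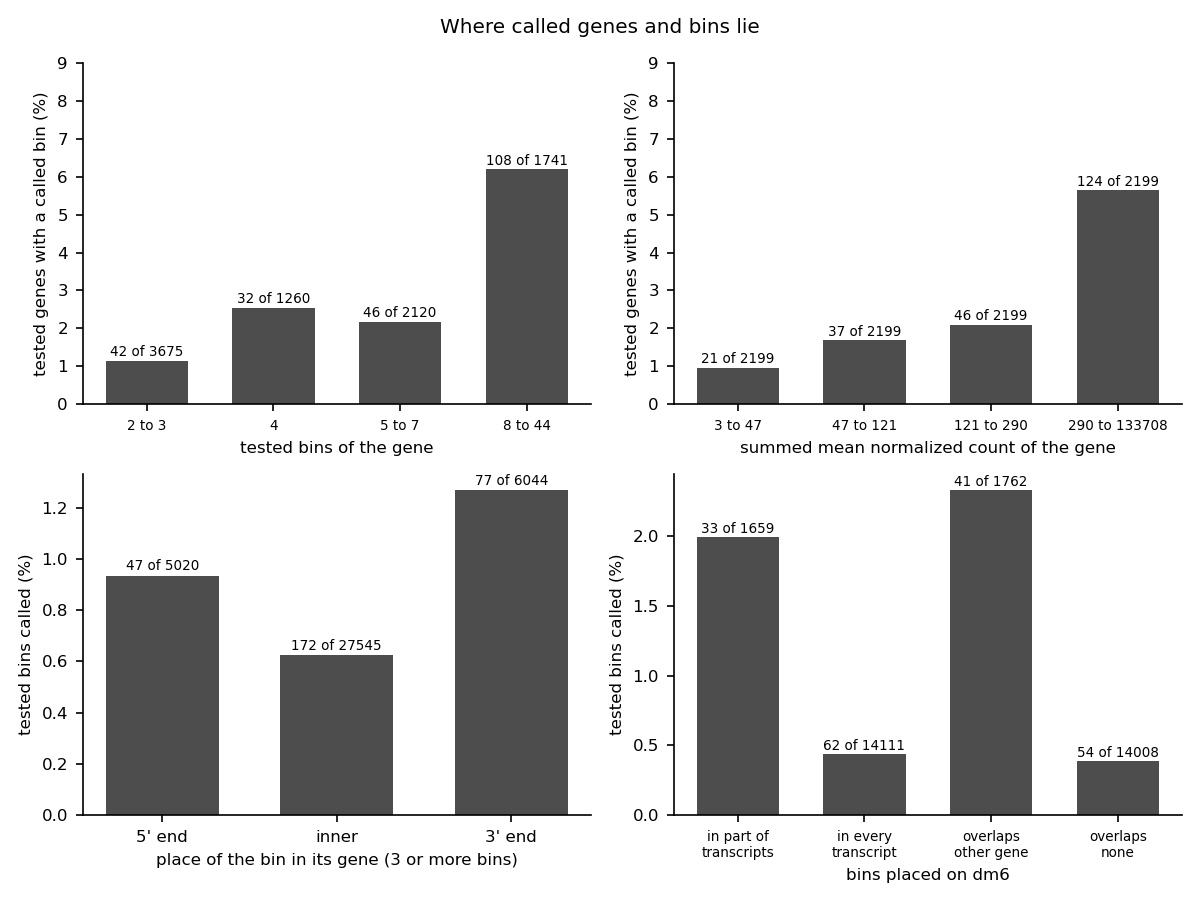
The upper panels give the percent of tested single-identifier genes with a called bin by number of tested bins and by summed mean normalized count. The lower panels give the percent of tested bins called by place in the gene and, for bins placed on dm6, by presence in annotated transcripts and overlap with another gene. Called and tested numbers stand above each bar, and the highest bars are genes of 8 to 44 bins (6.2%), genes of the highest counts (5.64%), 3′ end bins (1.27%), and bins overlapping another gene (2.33%).

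Overlapping genes entered the calls in another form as well. The authors' annotation joins overlapping genes into merged groups, and 56 of 291 tested groups were called (19.2%), with 126 of the 505 called bins. In a merged group a change in the level of one gene against another moves bin usage without any change of exons. In the group of Adh, alcohol dehydrogenase, and Adhr, which share a transcription unit, bin 1 rose with a log2 fold of 4.05 at a mean normalized count of 586, and bin 3 fell by 0.72 (the authors' deposited table, adjusted p listed as 0 for both). In the group of sea and fabp, a fatty acid binding protein gene, bins 1, 2 and 3 fell by 0.83, 0.95 and 0.81 and bins 7, 8 and 10 rose with log2 folds of 0.47, 0.30 and 0.36 (the authors' deposited table). In the group of Ant2 and sesB, the adenine nucleotide translocases of mitochondria, bins 1, 2 and 3 rose with log2 folds of 1.22, 1.46 and 1.57 (the authors' deposited table).

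The same puff stage runs were also set against larvae of the third instar at 12 hours (2 runs), so the 2 stage comparisons share these runs and their values are given side by side only. That table held 289 called bins of 45304 tested (0.638%). Gasp bin 1 had log2 folds of 1.93 against the second instar and 1.00 against the 12 hour larvae, called in both of the authors' deposited tables. For obst-E bin 1 the log2 folds were -0.63 and -0.32, and for CG8677 bin 9 they were -2.57 and -2.48, again called in both. Bins 9 and 10 of up had 0.69 and 0.92 against the second instar and 0.47 and 0.93 against 12 hours. Lsd-1 bin 6 had -2.0 against the second instar and -0.73 against 12 hours, where it was not called (adjusted p 1). For tw bin 10 the log2 folds were 1.44 and 0.20, and for Desat1 bin 2 they were 0.35 and 0.01, neither called against 12 hours. The table of Smn mutants against Oregon R, which shares no run with these, held 1571 called bins of 52485 tested (2.99%). There CG8677 bin 9 had a log2 fold of 2.65, bin 9 of up -0.51 and Lsd-1 bin 6 1.03, all called. Gasp bin 1 had 0.68 and was not called (adjusted p 0.223). Likewise obst-E bin 1 (0.25), tw bin 10 (-0.20) and Desat1 bin 2 (0.06) were not called. These are bins already named for the 12 hour comparison, and no share of overlap is read from them.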

How the data were processed

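Bulk RNA of larvae was measured by sequencing, 3 runs at puff stage 1-2 of the third instar and 2 at second instar. The authors mapped them to dm3 using Bowtie2 2.1.0 under TopHat 2.0.8, per the deposited readme, used Samtools 0.1.19, counted reads per exon bin with the scripts of DEXSeq and tested usage with DEXSeq 1.0.2 or later. Per the file headers, the deposited values are a p-value and adjusted p-value, a mean normalized count (a signal averaged by the authors over runs), a log2 fold of bin usage and a dispersion (a score, not used). Nothing was refitted. The reference names 13524 of the 14869 gene identifiers, and 3 names in the gene lists had no match.

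Bins are numbered by genome position. They were placed on dm6 (Ensembl release 115) for the 7392 of 12853 single-identifier genes in the reference that had as many bins there. In 324 plus strand genes of at least 4 bins, log2 mean counts followed log2 bin lengths with a median r of 0.77, and -0.37 with the bins reversed. In 353 minus strand genes these were 0.77 and -0.28. No coordinates were converted. A bin was called at the authors' adjusted p under 0.05, which equals a Benjamini-Hochberg adjustment recomputed here, and a gene when any bin was. The 43 genes named by rule were the 15 with the lowest adjusted p, the 10 with the largest fold at a mean count of at least 50, the 8 with the most called bins, and up to 5 called genes per list. Prm, Zasp66, Cht7, Cht10, CG4998 and the merged groups were named beyond it. The members and lists were chosen with earlier results of these data known. The functions were tested on simulated p-values. Tables were made with pandas 2.3.3 in Python 3.11.15.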

Additional observations from a re-analysis of the deposited data

How the results depend on the processing

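Of 43 alternatives over 5 results, 35 stayed within the limit set and 8 did not. The limit was 1.5 times the value given. For the percent of called bins higher it was the 95% Wilson interval, 48.7% to 57.4%. With bins of a mean normalized count of at least 50 only, 192 bins in 121 genes were called with a median absolute log2 fold of 0.42. With the adjustment recomputed over those bins, 221 bins in 138 genes were called, with a median of 0.39. With a Bonferroni adjustment over all tested bins, 215 bins in 136 genes were called. These 3 settings test or keep fewer bins by construction. Adjusting the lowest p of each gene for its number of bins gave 251 genes, all of them among the 284, and 28 of the 32 list genes. Leaving out merged groups gave 379 bins in 228 genes. The percent of called bins higher at puff stage 1-2 was 53.1% and ranged from 48.9% to 56.2% over the alternatives. Leaving out bins with an absolute log2 fold over 10 (457 bins in 266 genes) and leaving out the end bins of each gene (381 bins in 209 genes) were alternatives chosen after seeing the data. No paired analysis was possible because the table holds no value for any single run. For the same reason no run was left out in turn. Depth per run is unknown here, and 101 of the called bins had a mean normalized count under 10.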

Other observations

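The called bins with the highest share of reads in one of the stages were found in 40 genes or merged groups, each with a log2 fold beyond 10 in the authors' deposited table, and 18 of the 48 such bins lay in merged groups. These genes were picked out after their values were seen. In the merged group of Sur-8, CG34279 and CG34280, bins 7, 8 and 9 had mean normalized counts of 157, 115 and 60.4 and log2 folds of 16.8, 16.6 and 16.2 in the authors' deposited table. Bin 15 of bol, which encodes the Boule RNA-binding protein of the male germ line, had a mean normalized count of 6.93 and a log2 fold of 13.7 there. Bin 10 of P5CDh2 had 9.61 and 14.8, and bin 2 of the group of janA and janB had 5.08 and 14.2, in the same authors' deposited table. The sex of the larvae in the runs is not given in the sources used here.

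The share of tested genes called was 1.68% on the X chromosome (22 of 1312), from 2.21% to 2.75% on the 4 large autosome arms, and 3 of 67 on chromosome 4, where bt and apolpp lie. The other 699 tested genes with a single identifier had no chromosome in the annotation used here, and 40 of them were called (5.72%), so the shares by arm leave out 40 of the 228 called genes.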
